A study of Stylophora pistillata with 6 samples.

Results

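The 200 most abundant non-coding RNA models of the coral *Stylophora pistillata* were followed in branches kept for 6 months without light and in branches kept under a daily light cycle. They were the 200 transcripts with the XR prefix, which RefSeq gives to predicted non-coding RNAs, selected on their mean CPM (reads per 1000000 estimated reads of the library) over the 6 libraries, the highest of 2879 XR transcripts in a table of 36031 transcripts. They were thus chosen by their mean level over both groups, which is given only as a description. The rule does not use the difference between the groups, but a member that is low in one group can pass only through the other: 18 members averaged below the lowest mean CPM of the 200 (31.41) in darkness and 19 averaged below it in control. For these the choice itself favours a difference. The darkness group was 3 nubbins (small coral fragments) held in complete darkness, 24 h dark per day, and described in the labels as showing a bleaching phenotype. The control group was 3 nubbins under 12 h light and 12 h dark per day at 230 μmol photons per m² per s. Both groups were held at 25 °C in seawater of 38 g salt per liter and fed rotifers and brine shrimp larvae, and in both the tissue was subapical branch. The labels do not say whether the nubbins came from separate colonies. The p-values set the difference between groups against the spread among nubbins within groups, which may be partly technical. They may thus not hold beyond these 6 samples.

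A reef coral is an animal that carries photosynthetic algae inside its cells and draws much of its sugar from them, and a bleached coral has lost algae or their pigment. Predicted non-coding models are of several kinds. Long non-coding RNAs (lncRNAs) are transcribed like mRNAs but hold no clear reading frame, and some of those studied in other animals act on the transcription of genes near them or serve as scaffolds for proteins. Other models are non-coding variants of a protein-coding gene, and others again come from transcribed pseudogenes, which are disabled copies of coding genes.

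The name of the group could be checked for the members still listed in a table of RefSeq genes for the assembly jaStyPist1.2. Compared without version numbers, 46 of the 200 (23%) matched a gene there, each a different one, and 154 matched none. With version numbers included, 0 matched, so the listed models may differ from the versions counted here. Of the 46, 36 belonged to lncRNA genes, 8 to protein-coding genes and 2 to transcribed pseudogenes. The non-coding label thus held for the model of those 8 and not for their gene. Matched genes carry LOC numbers without product names, so no role is given for single members, and markers of coral or algal cell types could not be looked up.

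Darkness libraries held 29123228 to 33307386 estimated reads and control libraries 17819870 to 20218247. All darkness libraries were deeper than all controls, so light and depth cannot be told apart. The members were far from the limit of counting. All 200 had reads in every library and none was under 1 CPM in any, where 3 reads stand for 0.0901 to 0.168 CPM. Transcript lengths were not used, so CPM compares reads and not molecules between transcripts.

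The members took 3.75%, 3.51% and 3.63% of all estimated reads in the darkness libraries and 5.83%, 6.52% and 3.90% in the controls. The groups did not overlap, and the control libraries were much the more uneven (3.63 ± 0.12% in darkness, 5.41 ± 1.36% in control, SD, n = 3 each). As this was bulk tissue, a lower level of any member can come from fewer cells of a type or from less RNA per cell, which cannot be told apart. A single transcript carried the gap in shares. XR_002695259.1 alone held 11.4%, 9.6% and 7.2% of the members' reads in darkness and 46.3%, 49.4% and 23.5% in control. With XR_002695259.1 set aside, the remaining 199 took 3.32%, 3.18% and 3.37% in darkness and 3.13%, 3.30% and 2.98% in control, so the ratio of mean shares, darkness over control, was 1.05 without it and 0.67 with it. The 190 members ranked 11 to 200 held nearly the same share everywhere, 1.74%, 1.71% and 1.71% in darkness and 1.71%, 1.70% and 1.63% in control. A share of 50% of the members' reads was reached by the 8 to 10 leading members in a darkness library, by 2 in each of control replicates 1 and 2 and by 6 in control replicate 3.

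**Figure D1:**
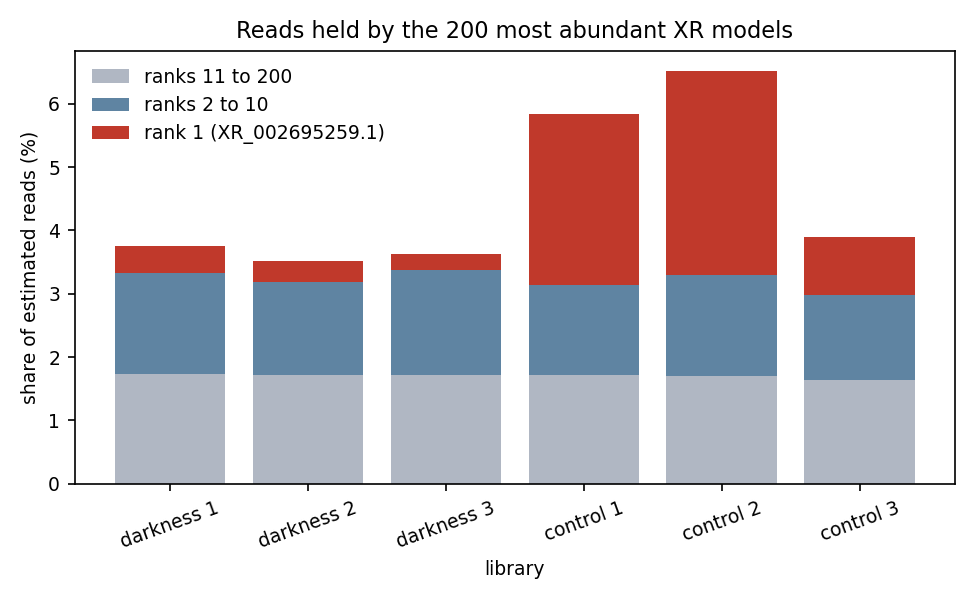
Share of each library's estimated reads (%, vertical axis) held by the 200 members in the 3 darkness and 3 control libraries, split into rank 1, ranks 2 to 10 and ranks 11 to 200. The block of ranks 11 to 200 lies between 1.63% and 1.74% in all 6 libraries, while rank 1 covers 0.261% to 0.428% in darkness and 0.917% to 3.22% in control.

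Comparing the 3 darkness with the 3 control libraries asks which abundant non-coding models differ after long darkness. Of the 200 members, 28 rose and 44 fell in darkness (36.0%; edgeR quasi-likelihood test, adjusted p under 0.05 over all tested transcripts). Over all 26906 tested transcripts the share called was 18.5%, with 8.08% higher and 10.5% lower. Among the 6059 tested mRNA models in the same range of mean CPM, 34.0% were called, 14.0% higher and 19.9% lower, close to the members' 14.0% higher and 22.0% lower. Less abundant XR transcripts were called in 8.46% of 1714 cases. The members' share called was thus near that of mRNA models with as many reads, and the differences between these shares were not tested. Among the 163 members whose mean reached the lower limit of the choice in both groups, 21 rose and 33 fell.

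Most changes were modest. Members that rose had a median log2 fold change of 0.73 and members that fell one of −0.79, and 23 of the 72 changed by less than 1.5-fold. A change of at least 2-fold was called for 9 higher and 16 lower members (12.5%, against 9.48% of all tested transcripts). Over all 200 the median fitted log2 fold change was −0.04, against −0.06 for mRNA models of like abundance and 0.05 over all tested transcripts. In 135 members (67.5%) the groups did not overlap in CPM, with 72 higher and 63 lower in darkness. Such separation held for 44.1% of all tested transcripts (26.2% higher and 17.9% lower) and for 59.0% of the mRNA models of like abundance. CPM uses library totals and not the scaling of the fit. The splits by direction in CPM and in the calls are thus not like for like. Ranks 1 to 50, 51 to 100, 101 to 150 and 151 to 200 held 17, 21, 22 and 12 called members. How the calls divide by direction depends on the scaling: 61.1% of them were lower with TMM scaling, 52.8% (34 higher and 38 lower) with upper quartile scaling and 50% (35 and 35) with library totals. With each library left out, 33 to 72 members were called, and 33, 38, 46 and 46 without darkness replicates 3, 2 and 1 and control replicate 1. In all, 32 of the 72 (11 higher and 21 lower) kept their call whichever library was left out.

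**Figure D2:**
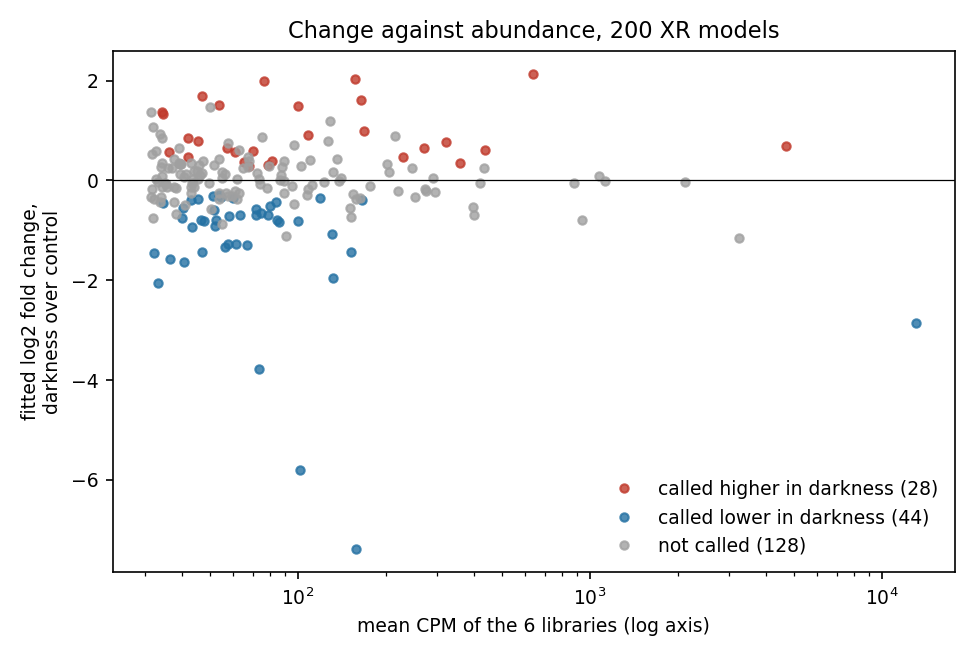
Fitted log2 fold change, darkness over control (vertical axis), against the mean CPM of the 6 libraries (horizontal, log axis) for the 200 members. The 28 red points were called higher and the 44 blue points lower in darkness, and the lowest blue points, at −7.38, −5.79 and −3.78, stand far below all others but the most abundant transcript at the right edge, at −2.85.

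The most abundant member, XR_002695259.1, had 4282, 3371 and 2612 CPM in darkness and 26984, 32215 and 9173 CPM in control. All 3 controls lay above all 3 darkness libraries, but control replicate 3 lay nearer to the darkness libraries than to the other controls. It was 7.2-fold lower (log2 fold change −2.85, SE 0.55, adjusted p = 0.0219, edgeR; fold changes here and below are from the fit, whose scaling differs slightly from plain CPM). The call was kept only without control replicate 3 (adjusted p = 0.00773, edgeR) and was lost without any other single library (adjusted p from 0.0502 to 0.0911, edgeR). Its gene was not matched, and its estimates were whole numbers in all 6 libraries.

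Next came XR_002694295.1, a non-coding model of the protein-coding gene LOC111324981, with 5632, 6039 and 6090 CPM in darkness and 3476, 3638 and 3134 CPM in control. It rose 1.62-fold (adjusted p = 0.0101, edgeR; 0.0524 without darkness replicate 3). The third, XR_002695109.1, had 2546, 865 and 2890 CPM in darkness and 3854, 5654 and 3636 CPM in control. The groups did not overlap, but darkness replicate 2 stood far below its own group, and with a fitted log2 fold change of −1.16 (SE 0.50) the member was not called (adjusted p = 0.175, edgeR).

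The next in rank, XR_002695581.1 and XR_002695435.1, were among the steadiest of the 200. XR_002695581.1 had 2261, 2119 and 2084 CPM in darkness and 2068, 2037 and 2113 CPM in control, and XR_002695435.1 had 1182, 1153 and 1146 CPM in darkness and 1076, 1063 and 1146 CPM in control. Groups overlapped in both, and the fitted changes were −0.04 (SE 0.07) and −0.01 (SE 0.06) on the log2 scale. The other 3 members with the smallest range relative to the mean were XR_002695584.1, XR_002695985.1 and XR_002694421.1, a model of the transcribed pseudogene LOC111326208. XR_002694421.1 had 166, 179 and 179 CPM in darkness and 168, 186 and 179 CPM in control. The adjusted p of these 5 lay between 0.287 and 0.952 (edgeR), which does not show that their levels were equal.

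Of the remaining members in the first 10, XR_002695221.1 had 602, 709 and 833 CPM in darkness and 1470, 831 and 1192 CPM in control. Control replicate 2 overlapped the darkness libraries, and the fitted change of −0.79 (log2, SE 0.21) missed the threshold (adjusted p = 0.0564, edgeR; 0.0283 without control replicate 2). XR_002695641.1 averaged 1145 ± 85.0 CPM in darkness and 1005 ± 88.3 CPM in control, and XR_002695643.1 averaged 898 ± 32.4 CPM in darkness and 867 ± 146 CPM in control (SD, n = 3 each). Neither passed the threshold, with adjusted p = 0.655 and 0.874 (edgeR). XR_002695636.1, the tenth, had 510, 604 and 507 CPM in darkness and 272, 339 and 387 CPM in control and rose 1.53-fold (adjusted p = 0.0351, edgeR). That call was lost without any 1 darkness library or control replicate 2 (adjusted p from 0.0674 to 0.123, edgeR).

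**Figure D3:**
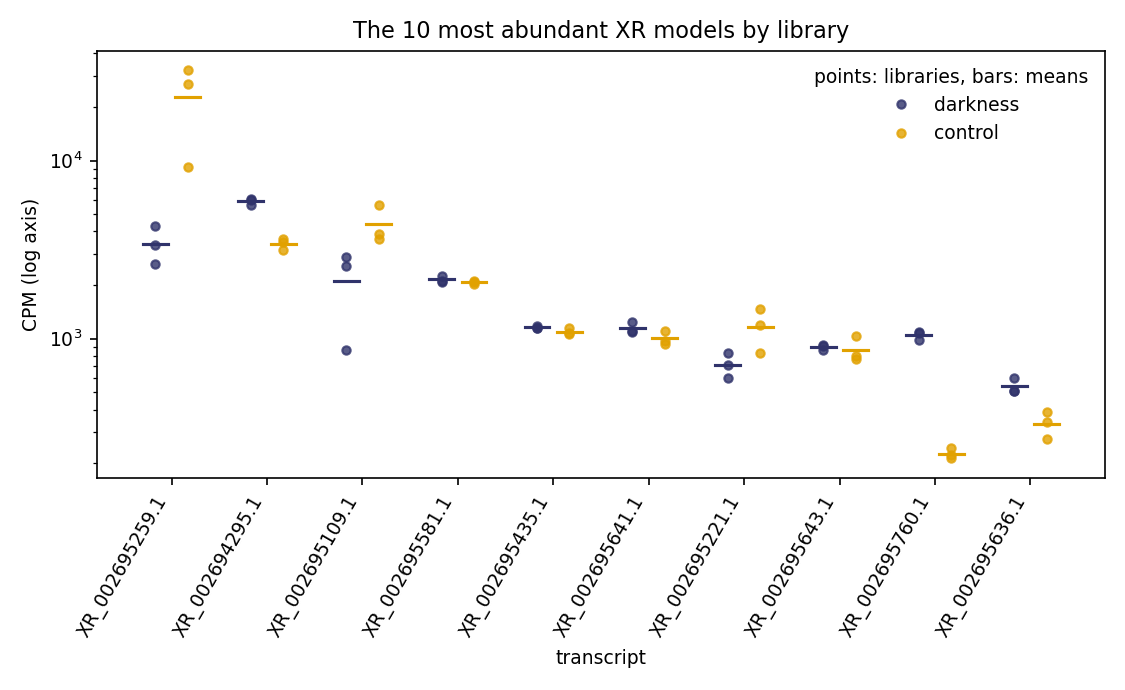
CPM (log axis) of the 10 most abundant members in each library, darkness left of control, with points for the 3 libraries of a group and bars for their means. XR_002695259.1 spans 9173 to 32215 CPM among controls, and XR_002695760.1 lies at 988 to 1088 CPM in darkness and 213 to 242 CPM in control.

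Among the rises, XR_002695760.1 of the lncRNA gene LOC111340505 was the largest and the most abundant of the 8 with the greatest fitted change. It had 1074, 1088 and 988 CPM in darkness and 242, 223 and 213 CPM in control. The libraries of each group lay close together, and the member was 4.36-fold higher (log2 fold change 2.12, SE 0.09, adjusted p = 0.00072, edgeR). It kept its call in all 15 alternative fits.

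XR_002694400.1, of the lncRNA gene LOC111325950, had 288, 263 and 218 CPM in darkness and 45.7, 91.4 and 36.3 CPM in control, 4.1-fold higher (adjusted p = 0.0257, edgeR). Control replicate 2 was the highest control, and the call was lost without control replicate 1 or any 1 darkness library (adjusted p from 0.071 to 0.0844, edgeR). XR_002695634.1, unmatched, had 136, 117 and 119 CPM in darkness and 30.2, 34.1 and 22.2 CPM in control, 4.01-fold higher (adjusted p = 0.00374, edgeR). XR_002694386.1, also unmatched, had 93.3, 65.6 and 59.3 CPM in darkness and 24.4, 14.8 and 24.8 CPM in control, 3.23-fold higher (adjusted p = 0.0112, edgeR). In both the groups were well apart, and darkness replicate 1 was the highest library. Both averaged below the lower limit of the choice in control and were thus chosen only through their darkness level.

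The other 4 of the 8 largest rises were all lncRNA models. XR_002695556.1 of LOC111338098 had 329, 205 and 221 CPM in darkness and 81.8, 86.0 and 65.0 CPM in control, 3.04-fold higher. XR_002695943.1 of LOC111342283 had 195, 124 and 132 CPM in darkness and 56.1, 53.0 and 40.1 CPM in control, 2.83-fold higher. In both of these darkness replicate 1 was the highest library. XR_002694556.1 of LOC111327712 had 71.8, 80.9 and 89.9 CPM in darkness and 30.7, 22.3 and 27.2 CPM in control, 2.84-fold higher. XR_002694793.1 of LOC111330462 had 44.2, 52.5 and 54.3 CPM in darkness and 17.4, 18.1 and 18.9 CPM in control, 2.61-fold higher. Adjusted p of these 4 lay between 0.00162 and 0.0147 (edgeR), and no call among the 4 was lost when a library was left out. Of the 4, XR_002694556.1 and XR_002694793.1 averaged below the lower limit of the choice in control and were chosen only through their darkness level.

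The 3 steepest falls were all of members that were chosen only through their control level. XR_002695945.1 of the lncRNA gene LOC111342308 had 2.36, 1.71 and 1.85 CPM in darkness, from 75, 57 and 54 reads, and 497, 145 and 297 CPM in control, from 9741, 2580 and 6009 reads. Every control exceeded every darkness library many times over, and the controls also differed among themselves. It was 167-fold lower (log2 fold change −7.38, SE 0.58, adjusted p = 0.00195, edgeR). XR_002695333.1, unmatched, had 2.89, 4.44 and 4.05 CPM in darkness and 204, 132 and 262 CPM in control, 55.5-fold lower (adjusted p = 0.000954, edgeR). XR_002694945.1 of the lncRNA gene LOC111331679 had 6.00, 13.4 and 12.2 CPM in darkness and 125, 127 and 156 CPM in control, 13.8-fold lower (adjusted p = 0.00247, edgeR). These 3 were present in every darkness library at a small part of their control level, their estimates were whole numbers in all 6 libraries, and each kept its call in all 15 alternative fits.

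The 8 largest falls held XR_002695259.1, these 3 and 4 more. Of the 4, XR_002694523.1 averaged above the lower limit of the choice in both groups and the other 3 in control alone. XR_002694454.1 had 13.8, 14.9 and 11.7 CPM in darkness and 51.7, 54.4 and 52.5 CPM in control, 4.18-fold lower. XR_002694523.1 of the lncRNA gene LOC111327338 had 55.3, 53.4 and 62.6 CPM in darkness and 185, 204 and 231 CPM in control, 3.85-fold lower. In both, the gap between groups was far wider than the spread within them. XR_002695110.1 had 20.3, 19.4 and 22.7 CPM in darkness and 64.1, 65.3 and 51.6 CPM in control, 3.11-fold lower. XR_002695175.1 had 19.4, 19.3 and 19.1 CPM in darkness and 49.4, 56.9 and 55.1 CPM in control, 2.98-fold lower. Adjusted p of the 4 lay between 0.000877 and 0.00262 (edgeR), and none lost its call in any of the 15 alternative fits. XR_002694454.1, XR_002695110.1 and XR_002695175.1 were unmatched.

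**Figure D4:**
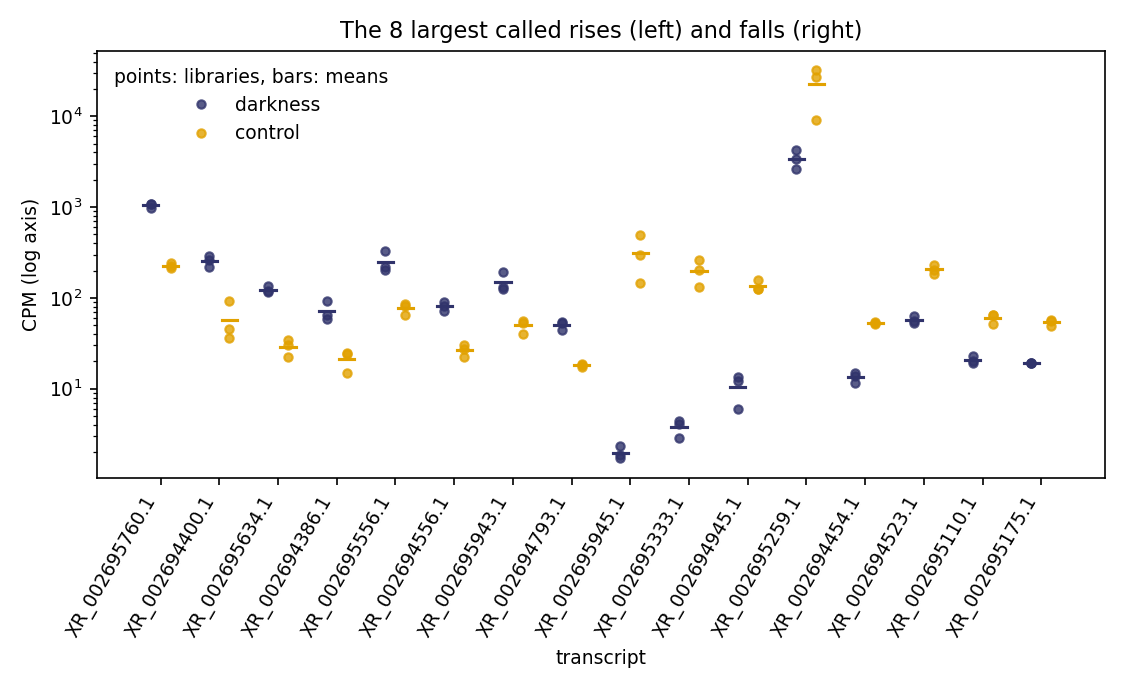
CPM (log axis) in each library of the 8 members with the largest called rise (left) and the 8 with the largest called fall (right), darkness left of control within each, with bars for group means. The groups do not overlap in any of the 16, which were picked for a large called change. They did not overlap in 67.5% of all members and 44.1% of all tested transcripts. In darkness XR_002695945.1, XR_002695333.1 and XR_002694945.1 reach down to 1.71, 2.89 and 6.00 CPM.

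By kind of gene, 10 of the 36 lncRNA members rose and 9 fell (52.8% called, where 36.0% of the members, 34.0% of mRNA models of like abundance and 18.5% of all tested transcripts were called), with a median absolute log2 fold change of 0.58. Of the 8 models of protein-coding genes, 1 rose and 1 fell (25%), with a median of 0.25. Neither of the 2 pseudogene models was called. Of the 154 unmatched members, 17 rose and 34 fell (33.1%), with a median absolute log2 fold change of 0.37. Of all 200, the median was 0.38, against 0.32 for mRNA models of like abundance and 0.49 over all tested transcripts. Of the 46 matched members of any kind, 21 were called (45.7%). Some called lncRNA members, XR_002695945.1 and XR_002694556.1 among them, were chosen only through 1 group, where the choice itself favours a difference. The differences between kinds, and between matched and unmatched members, were not tested.

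Another tested transcript of the same gene existed for 9 members, 12 pairs in all, and in none of the 12 were both called. Reads shared between transcripts of a gene are divided by estimation. All 12 of the other transcripts had fractional estimates, so the values of a pair may depend on each other. In 6 of the pairs both fitted changes had the same sign. The mRNA model XM_022939696.1 of LOC111334015 was lower in darkness, at 88.9, 98.3 and 93.8 CPM against 120, 138 and 140 CPM in control (log2 fold change −0.60, SE 0.09, adjusted p = 0.00956, edgeR). The non-coding model of that gene, XR_002695193.1, had 44.0, 44.3 and 43.6 CPM in darkness and 39.3, 51.3 and 37.3 CPM in control (log2 fold change −0.06, SE 0.17, adjusted p = 0.865, edgeR). The control libraries of XR_002695193.1 lay on both sides of the tightly grouped darkness libraries.

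XR_002694035.1 of the lncRNA gene LOC111322104 rose 1.87-fold, with 167, 135 and 131 CPM in darkness and 86.0, 57.9 and 74.5 CPM in control (adjusted p = 0.0174, edgeR). The call was lost without any 1 darkness library or control replicate 3 (adjusted p from 0.0518 to 0.0566, edgeR). Its other model, XR_002694034.1, had 2.20, 2.45 and 1.27 CPM in darkness and 2.58, 3.95 and 4.79 CPM in control, with a fitted change of −1.01 (SE 0.41, adjusted p = 0.153, edgeR). XR_002693992.1 of the lncRNA gene LOC111321646 was 2.71-fold lower, with 23.1, 28.1 and 28.3 CPM in darkness and 58.6, 82.5 and 59.8 CPM in control (adjusted p = 0.0072, edgeR). XR_002693992.1 averaged below the lower limit of the choice in darkness and was chosen only through its control level. Its other model XR_002693993.1 was not called (log2 fold change −0.44, SE 0.40, adjusted p = 0.516, edgeR).

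Of the models of protein-coding genes, XR_002696450.1 of LOC111346890 fell slightly, with 50.4, 49.0 and 50.1 CPM in darkness and 58.8, 58.5 and 59.6 CPM in control (1.26-fold lower, adjusted p = 0.0254, edgeR). Small as it is, the gap exceeded the spread of either group, though the call was lost without control replicate 1 or any 1 darkness library (adjusted p from 0.0615 to 0.103, edgeR). The mRNA model of the same gene, XM_022954149.1, had 5.36, 5.67 and 8.14 CPM in darkness and 5.08, 3.81 and 4.99 CPM in control, and was not called (log2 fold change 0.38, SE 0.25, adjusted p = 0.369, edgeR). XR_002696146.1 of LOC111344294, which has 4 further tested XR models, averaged 50.8 ± 6.36 CPM in darkness and 56.5 ± 10.8 CPM in control (SD, n = 3 each) and was not called (adjusted p = 0.426, edgeR).

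Neighbouring genes were taken from the gene order of jaStyPist1.2. For 28 matched members the gene directly before or after had a tested transcript, giving 45 pairs of a member and a neighbour's transcript. Of the 45 neighbour transcripts 10 were called (22.2%, near the 18.5% of all tested transcripts), so the pairs are given as values and not as a result about the members. In 4 pairs both were called, and in 1 of the 4 they went the same way. These 4 are named after their values were seen. XR_002694202.1 of the lncRNA gene LOC111323783 rose by 1.00 on the log2 scale (SE 0.25, adjusted p = 0.0486, edgeR), a call lost in each of the 6 fits with a library missing (edgeR adjusted p between 0.0577 and 0.148). The mRNA of the adjacent LOC111323781 rose by 0.75 (SE 0.09, adjusted p = 0.006, edgeR). XR_002694952.1 of LOC111331796, an lncRNA gene, rose by 0.79 on the log2 scale, beside a fall by 1.81 of the mRNA of LOC111331801; its own call was lost without darkness replicate 3 (adjusted p = 0.0512, edgeR). XR_002696172.1 of the lncRNA gene LOC111344556 rose by 0.48, beside a fall by 1.10 of the mRNA of LOC111344548; its own call was kept only without control replicate 2 (adjusted p = 0.0168, edgeR, against 0.0573 to 0.111 without any other library). XR_002694295.1 of LOC111324981 rose by 0.70, beside a fall by 1.30 of the mRNA of LOC111324895. The genes flanking the steepest fall, LOC111342308, were not called: LOC111342305 and LOC111342309 had fitted changes of −0.17 and −0.16 (adjusted p = 0.271 and 0.468, edgeR).

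Some abundant members carry consecutive or nearly consecutive accession numbers, a grouping chosen after the values were seen. Of the 13 XR rows numbered from XR_002695634.1 to XR_002695646.1, 11 were members, and 6 of these ranked in the first 50. The 11 together took 0.388%, 0.415% and 0.383% of reads in darkness and 0.289%, 0.348% and 0.313% in control, with no overlap between the groups. Of the 11, 3 rose, namely XR_002695634.1, XR_002695636.1 and XR_002695646.1, and none fell, with fitted log2 fold changes from −0.21 to 2.00. All 5 rows from XR_002696005.1 to XR_002696009.1 were members as well, at 0.0834%, 0.0816% and 0.0764% of reads in darkness and 0.0527%, 0.051% and 0.0475% in control. XR_002696005.1 was the 1 that passed the threshold, with 418, 431 and 390 CPM in darkness and 260, 200 and 226 CPM in control (1.69-fold higher, adjusted p = 0.00621, edgeR). Of all members 36.0% were called, as were 34.0% of mRNA models of like abundance and 18.5% of all tested transcripts. In 67.5% of the members the groups did not overlap. The counts in these runs are thus given as values and not as a result about the runs. None of these 16 matched a gene, and only 4 of them had whole estimates in all 6 libraries. The part that division of reads between similar transcripts plays in their values was not tested.

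Controls scattered more than darkness libraries. The median SD of log2(CPM + 0.5) over the members was 0.10 among the 3 darkness libraries and 0.18 among the 3 controls, and the control SD was the larger in 145 of 200 members (72.5%). All tested transcripts had medians of 0.19 in darkness and 0.31 in control and a larger control SD in 69.8%, so the pattern was shared with the whole table. The ratio of the members' medians, control over darkness, was 1.79. It was 2.04, 1.26 and 1.3 without control replicates 1, 2 and 3. Without darkness replicates 1, 2 and 3 it was 2.87, 2.26 and 1.93. With a library left out, the group SDs rest on unequal numbers of libraries, so these values and 1.79 are not like for like. Among the controls, replicate 3 was the lowest in 93 members. Replicate 2 was the highest in 79 and the lowest in 74.

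The widest scatter among controls was in XR_002694527.1 of the lncRNA gene LOC111327352, XR_002695259.1 and XR_002693962.1. XR_002694527.1 had 23.7, 44.2 and 38.2 CPM in darkness and 49.0, 48.1 and 9.94 CPM in control, where replicate 3 lay far below the other two. XR_002693962.1 had 29.4, 58.3 and 51.1 CPM in darkness and 23.1, 20.1 and 6.43 CPM in control, and again control replicate 3 was lowest. In darkness the widest scatter was in XR_002695109.1, XR_002694945.1 and XR_002693893.1. XR_002693893.1 had 48.8, 22.4 and 30.6 CPM in darkness and 34.6, 34.0 and 25.3 CPM in control, with darkness replicate 1 highest. Neither XR_002694527.1, XR_002693962.1 nor XR_002693893.1 passed the threshold (adjusted p = 0.919, 0.151 and 0.972, edgeR).

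**Figure D5:**
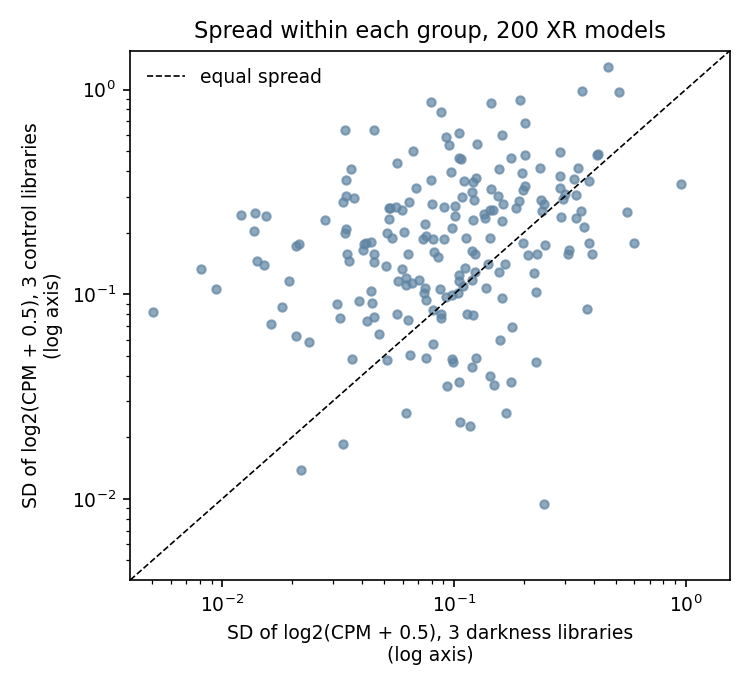
SD of log2(CPM + 0.5) among the 3 control libraries (vertical, log axis) against that among the 3 darkness libraries (horizontal, log axis), 1 point for each of the 200 members, with a dashed line of equal spread. Points above the line, 145 of 200, scatter more among controls.

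At the lower end of the choice, the members just inside were XR_002694868.1 and XR_002693962.1, with mean CPM of 31.42 and 31.41. Just outside were XR_002694711.1 and XR_002695681.1, with 31.41 and 31.38. XR_002694711.1, left out by this narrow margin, had 24.2, 23.7 and 25.0 CPM in darkness and 35.7, 38.5 and 41.2 CPM in control, while XR_002695681.1 had 33.5, 34.5 and 32.5 CPM in darkness and 27.9, 28.8 and 31.1 CPM in control.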

How the data were processed

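RNA of 3 darkness and 3 control nubbins was sequenced. The authors deposited estimated counts per RefSeq transcript, not scaled to depth; 0 columns were unused. Per the submitters' processing notes, fastp, Salmon 0.11.4 and DESeq2 were used, without role or order. The genome build, the annotation release and whether strand was used are not given in those sources. Of the members' estimates 44.0% to 48.0% per library were not whole, which marks division of reads between similar transcripts.

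Groups and replicate numbers came from sample titles. Estimates were rounded, filtered with filterByExpr (all 200 members passed), TMM-scaled and tested with edgeR 4.0.16 (robust quasi-likelihood F test, group as the only term, two-sided, Benjamini-Hochberg over 26906 transcripts, threshold 0.05) in R 4.3.3. The SE is the log2 fold change divided by the square root of F. Plain CPM used library totals. Alternatives included other scalings, filters, DESeq2 1.42.0, limma 3.58.1 (voom), thinning, left-out libraries and a replicate block.

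On simulated counts for darkness against control (25655 transcripts), 47 of 100 4-fold and 7 of 100 2-fold changes were recovered, with 8 unchanged transcripts called. Only these 200 transcripts were changed, drawn from those of at least 4 CPM. The members all averaged at least 31.41 CPM, and a larger share of the real table was called. The recovery rates thus do not carry over to the members. In a chi-square comparison every pair of libraries of 1 group differed beyond sampling noise (at least 26.3 per degree of freedom). Members and lists were chosen with earlier results of these data known. Transcripts named are the 10 most abundant, the 8 largest called rises and falls, the 2 on each side of the limit at 200, the 3 of widest scatter per group, the 5 steadiest, 5 that differ most from another transcript of their gene, and those said to be chosen after seeing values.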

Additional observations from a re-analysis of the deposited data

How the results depend on the processing

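The count of called members, 72 (28 higher and 44 lower), was 65 to 84 under RLE, upper quartile and library-total scaling, limma-voom, no filter, a stricter filter and thinning to one depth. DESeq2 called 120 (53 higher and 67 lower) of the members and 9467 transcripts in all; the cause was not tested. With the replicate number as a block, which leaves fewer degrees of freedom, 29 members (10 higher and 19 lower) and 1386 transcripts were called. No label says that the numbers pair nubbins, and deviations of same-numbered libraries correlated at −0.0425, −0.0277 and 0.0308; no sample but darkness replicate 3 and control replicate 3 correlated best with its own number. Leaving out 1 library, with fewer samples in each such fit, gave 33 to 72 members (11 to 32 higher, 22 to 47 lower) and 2121 to 4466 transcripts. Requiring 2-fold left 25 members and 2552 transcripts, and an adjusted p under 0.01 left 28 and 1790. Lists of 100 and of 400 held 38 (38.0%; 18 higher and 20 lower) and 107 (26.8%; 39 and 68) called. Of the 99 members with whole estimates 43 were called (43.4%; 17 and 26), and of the other 101, 29 (28.7%); the cause was not tested. Ranking by median CPM gave 72. In every fit run, 24 of the 72 were called (7 higher and 17 lower). The median log2 fold change of the members turned from −0.04 to 0.01 with upper quartile scaling and 0.052 with library totals, which moved that of all tested transcripts from 0.05 to 0.10 and 0.14. The ratio of read shares, 0.67, was 1.05 without the most abundant member, 0.454 over whole-estimate members and 0.588 to 0.746 with 1 library left out. The ratio of spreads, 1.79, was 1.72 with libraries thinned to the smallest total. It was 1.26 to 2.87 with 1 library left out, where the group SDs rest on unequal numbers of libraries. Over the 36 named members, 506 of 540 refits stayed on their side of the threshold, in 28 a call was lost, and in 6 one was gained (XR_002695221.1, XR_002695109.1 and XR_002693962.1); no called direction turned. Calls lost under the block were those of XR_002695259.1, XR_002694295.1, XR_002695636.1, XR_002695556.1, XR_002694400.1 and XR_002696450.1 (adjusted p from 0.0518 to 0.113, edgeR).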
